A study of Mus musculus with 10 samples.

Results

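The genes described here are *Fkbp5* and 9 other genes of the glucocorticoid response, *Tsc22d3*, *Nr3c1*, *Nr3c2*, *Sgk1*, *Klf9*, *Ddit4*, *Errfi1*, *Mt1* and *Mt2*. They were taken by symbol from a count table of 55453 genes, and all 10 were found. The set was chosen by the measured level of *Fkbp5*, which differed between title prefixes among libraries of mice treated with glatiramer acetate (GA), so differences between those prefixes are described here without a test. RNA came from hippocampal microglia, sorted as CD45int CD11b+ cells, of female 3xTg mice aged at least 15 months. All mice of both groups carry mutant human transgenes, among them APP Swedish and MAPT P301L, which the Thy1.2 promoter expresses in neurons rather than in the sorted cells. The PBS group holds 5 libraries, 388_1 to 388_5, from mice injected with PBS alone. In the GA group, 394_1, 394_2, 400_1, 400_2 and 400_3 come from mice given 0.1 mg of GA, an immunomodulatory drug used in multiple sclerosis, per weekly injection for about 8 weeks. The labels do not explain the prefixes 388, 394 and 400. Prefix 388 holds all PBS libraries and no GA library, so a difference between GA and PBS cannot be told apart from one between prefixes. Prefixes 394 and 400 both belong to the GA group. Nothing in the labels ties a library to a single mouse, so the p-values measure the spread between these libraries.

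Glucocorticoids enter cells and bind the glucocorticoid receptor, which is held ready by HSP90 and its cochaperones, moves to the nucleus and switches genes on or off. *Fkbp5* encodes FKBP51, an HSP90 cochaperone that lowers the receptor's affinity for hormone, and the receptor induces it, which closes a feedback loop. Microglia carry the receptor, and their inflammatory responses are restrained by it.

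Total counts per library ranged from 32332185 to 38764643, and values are given as CPM (counts per 1000000 counts) after TMM normalization. Summed levels of 10 microglia markers were 50141 to 59857 CPM, while 9 neuronal markers summed to 0.420 to 2.11 CPM, each with a count of 0 in at least 1 library. A count of 0 allows for up to 3 reads, and this limit covers counting error only. Of the 10 genes, 9 passed a filter on low counts that kept 14481 genes, and *Mt2* did not.

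Promoters are shown for 3 of the genes, as the 250 bases before an annotated start, to set the levels below beside the sequence letters that hormone receptor and metal sensor are known to read. RefSeq held such windows on GRCm38.p6 for 9 of the 10 genes. The letters of the glucocorticoid response element searched were GNACANNNTGTNC, the same on both strands, and those of the metal response element were TGCNCNC, on both strands, with matches free to overlap. Capitals mark a match to either. The *Sgk1* window, 1 of 6 for this gene, lies at chr10:21993640-21993889 on the plus strand, the *Mt1* window at chr8:94178839-94179088 on the plus strand, and the *Fkbp5* window at chr17:28486150-28486399 on the minus strand.
Sgk1: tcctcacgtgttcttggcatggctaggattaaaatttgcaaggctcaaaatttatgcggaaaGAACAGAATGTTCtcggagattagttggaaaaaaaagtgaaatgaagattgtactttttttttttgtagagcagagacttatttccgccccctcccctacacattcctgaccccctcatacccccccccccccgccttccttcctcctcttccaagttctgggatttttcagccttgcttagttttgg
Mt1: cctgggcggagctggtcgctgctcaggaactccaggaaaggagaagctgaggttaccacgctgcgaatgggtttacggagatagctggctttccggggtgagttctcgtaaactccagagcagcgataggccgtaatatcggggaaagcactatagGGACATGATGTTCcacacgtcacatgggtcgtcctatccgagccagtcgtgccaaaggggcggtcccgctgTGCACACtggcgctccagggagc
Fkbp5: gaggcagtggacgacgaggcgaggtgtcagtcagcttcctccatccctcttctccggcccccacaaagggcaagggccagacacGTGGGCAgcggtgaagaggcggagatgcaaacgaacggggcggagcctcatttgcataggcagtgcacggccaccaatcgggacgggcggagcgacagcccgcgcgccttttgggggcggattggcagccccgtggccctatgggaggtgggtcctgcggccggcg

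The response element letters were found in 0.387% of all 32851 promoter windows of this length. Among the 9 genes with a window they were found in *Sgk1*, in 1 of its 6 windows, and in *Mt1*. Some of these genes have several windows, so the count by gene is not on the scale of the share by window. In *Sgk1* the letters read GAACAGAATGTTC and start 188 bases before the start site, and in *Mt1* they read GGACATGATGTTC and start 94 bases before it. The metal element letters occur in 44.4% of windows, and 1 match lies in the *Fkbp5* window. No glucocorticoid element letters were found in the *Fkbp5* window, which says only that they are not in these 250 bases. The *Mt2* window held 5 matches to the metal element letters, where 1.28% of all windows held 4 or more, and the *Mt1* window held 1. These counts too cover only the 250 bases before 1 annotated start, so they do not compare the whole promoters of the 2 genes.

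Per length of merged exons, the mean level over the 10 libraries was highest for *Sgk1*, at 238 ± 53.9 RPKM (SD, n = 10), a kinase gene that regulates ion transport and survival. It was followed by *Mt1* with 37.0 ± 6.72 RPKM, the receptor gene *Nr3c1* with 34.8 ± 2.26 RPKM, *Tsc22d3* with 26.5 ± 8.03 RPKM and *Fkbp5* with 14.4 ± 7.30 RPKM (SD, n = 10 each). Neighbours from *Mt1* down to *Errfi1* (11.1 ± 1.42 RPKM) were not separated by their SD, nor were *Ddit4* (5.83 ± 3.77 RPKM) and *Nr3c2* (2.10 ± 0.311 RPKM), or *Mt2* (0.376 ± 0.217 RPKM) and *Klf9* (0.300 ± 0.0946 RPKM). These 5 levels are again means with SD over n = 10 libraries. The merged exons of *Mt1* form 1 block of 1246 bases that covers the whole annotated gene. Its RPKM and its place in this order depend on that length, and would be higher for a shorter transcript.

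*Fkbp5* (ENSMUSG00000024222.17) spans 28399094 to 28517527 of chromosome 17 (GRCm38, minus strand), with 9468 exon bases, and was counted 2631 to 8800 times per library. In the PBS group it had 83.9, 104, 117, 176 and 131 CPM in libraries 388_1 to 388_5. In the GA group it had 259.9 CPM in 394_1, 247 CPM in 394_2, 82.4 CPM in 400_1, 69.0 CPM in 400_2 and 88.7 CPM in 400_3. Both libraries of prefix 394 lay above all others, as for 2.49% of all genes, and the 3 of prefix 400 lay at the low end of the PBS range or under it. The geometric mean of prefix 400 was 3.18-fold lower than that of prefix 394, a log2 difference of -1.67 that chose the gene and carries no test. Against the PBS group, prefix 394 was 2.13-fold higher and prefix 400 was 1.49-fold lower. By size of the difference between the GA prefixes, *Fkbp5* ranked 104 among the 14481 genes, whose values ran from -0.64 to 0.62 between the percentiles 5 and 95.

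**Figure D1:**
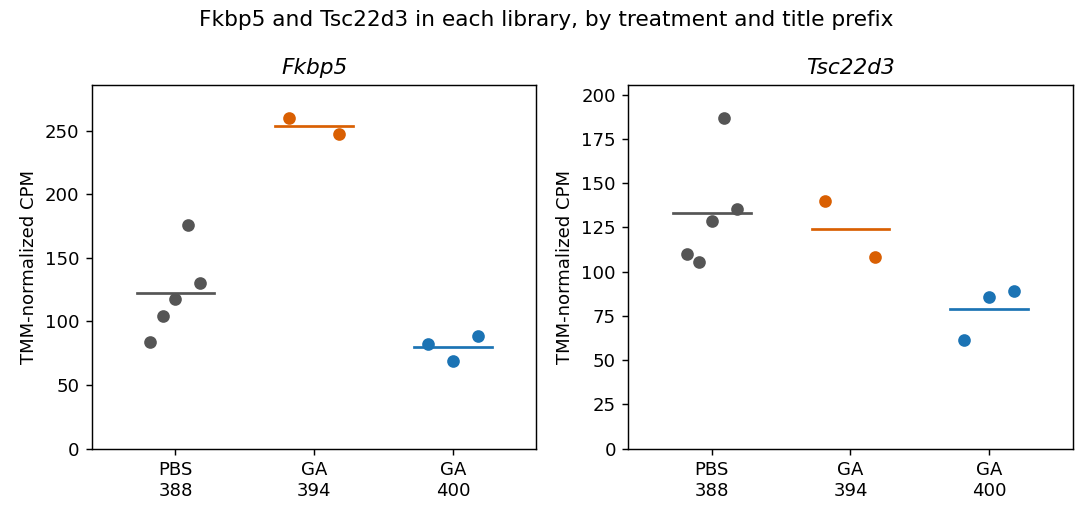
TMM-normalized CPM of *Fkbp5* and *Tsc22d3* (vertical axes from 0) in each library, with PBS libraries of prefix 388 and GA libraries of prefixes 394 and 400 side by side. Points are libraries and lines are means. For *Fkbp5* the 394 libraries, at 247 and 259.9 CPM, sit above the 8 others, and for *Tsc22d3* the 400 libraries, at 61.4 to 89.1 CPM, sit below the 7 others.

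Over all GA libraries the groups overlapped. The mean was 122 ± 34.5 CPM for PBS and 149 ± 95.4 CPM for GA (SD, n = 5 each), a log2 fold change of 0.29 (standard error 0.35). The adjusted *P* was 0.949 in edgeR's quasi-likelihood test, and a two-sided exact permutation test on log2 CPM gave *P* = 0.873, where 0.00794 is the smallest the design allows. Without library 394_1 the log2 fold change was -0.01, and without 400_2 it was 0.48.

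The astrocyte marker *Slc1a3*, a glutamate transporter gene, was high in the same libraries as *Fkbp5* (r = 0.92 over 10 libraries), while for the 5 other astrocyte markers tested r ran from -0.33 to 0.27. The sum of 9 astrocyte markers was 326 and 355 CPM in the 394 libraries, 248 to 306 CPM in the PBS group and no more than 274 CPM in the 400 libraries. Nearly all of it came from *Slc1a3*, with 323 to 349 CPM in the 394 libraries and at most 295 CPM elsewhere. The other 8 markers summed to 3.30 to 6.34 CPM in the 394 libraries, 3.17 to 11.0 CPM in the PBS group and 4.45 to 8.57 CPM in the 400 libraries. *Aqp4*, *Slc1a2*, *Gja1* and *Slc4a4* had a count of 0 in at least 1 library. In bulk RNA, fewer cells of a type and less RNA per cell cannot be told apart.

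*Tsc22d3* encodes GILZ, a leucine zipper protein induced by glucocorticoids that dampens inflammatory transcription factors. It lies on the X chromosome (ENSMUSG00000031431.13, GRCm38, 140539528 to 140600659, minus strand). PBS libraries 388_1 to 388_5 had 110.0, 106, 129, 187 and 135 CPM. GA libraries had 140.2 CPM in 394_1, 108 CPM in 394_2, 61.4 CPM in 400_1, 85.6 CPM in 400_2 and 89.1 CPM in 400_3. All 3 libraries of prefix 400 lay below the other 7 libraries, as for 1.47% of all genes, while the 394 libraries lay within the PBS range. The group means were 133 ± 32.4 CPM for PBS and 96.9 ± 29.4 CPM for GA (SD, n = 5 each).

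Its log2 fold change for GA against PBS was -0.46 (standard error 0.19), with an unadjusted *P* of 0.0318 and an adjusted *P* of 0.854 in edgeR's quasi-likelihood test. The exact permutation test gave a two-sided *P* of 0.103, and DESeq2 an unadjusted *P* of 0.0674. With single libraries left out, the unadjusted edgeR *P* ran from 0.00336 (without 394_1, log2 fold change -0.63) to 0.109 (without 388_4), and it was above 0.05 without 388_4, 388_5, 400_1, 400_2 or 400_3. Without 388_4 the log2 fold change was -0.31. Neutrophil markers, 8 genes, summed to 10.9 to 105 CPM in the 400 libraries, 42.3 and 169 CPM in the 394 libraries and 37.9 to 446 CPM in the PBS group, and their part in the level of *Tsc22d3* was not tested.

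Among the 9 genes tested for GA against PBS, 0 had an adjusted *P* under 0.05 in edgeR, where the share of all genes was 0%, and 0 in DESeq2, where it was 0.00727% and *Mt2* was tested too. An unadjusted *P* under 0.05 was found for 1 of the 9 in edgeR, *Tsc22d3*, against 5.75% of all genes, and for 0 of 10 in DESeq2, against 4.53%. For 0 of the 9 did the groups not overlap, against 0.891% of all genes. The log2 fold changes had a median of -0.06 over the 9 genes and 0.00 over all 14481 genes, with 4 of the 9 higher and 5 lower in the GA group.

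**Figure D2:**
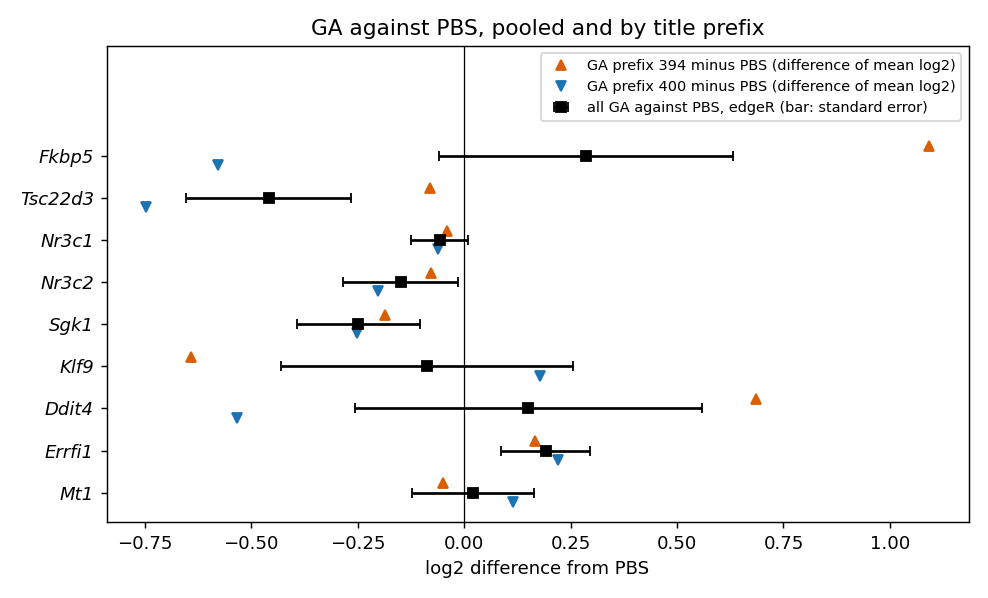
Log2 difference from PBS (horizontal axis) for the 9 genes tested. Squares with bars are edgeR log2 fold changes with their standard errors over all GA libraries, and triangles are differences of mean log2 CPM for GA libraries of prefix 394 (pointing up) and prefix 400 (pointing down). *Fkbp5* shows the widest gap between its triangles, at 1.09 and -0.58.

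Between the GA prefixes, libraries did not overlap for 3 of the 9 genes, *Fkbp5*, *Tsc22d3* and *Ddit4*, each lower in prefix 400, where 27.7% of all genes did not overlap and 13.5% were lower. *Klf9* went the other way, 1.76-fold higher in prefix 400, with libraries that overlapped. *Mt2*, not among the 9, was higher in each library of prefix 400, at counts of 4 and 6 in prefix 394 and 7 to 18 in prefix 400. Prefix 394 did not overlap with PBS for *Fkbp5* alone among the 9 genes, against 8.42% of all genes (4.37% higher), and prefix 400 did not overlap with PBS for *Tsc22d3* alone, against 4.83% (2.81% lower). The ratio of their CPM values was 0.763 to 0.988 in the PBS group, 1.85 and 2.28 in the 394 libraries, and 0.806, 0.996 and 1.34 in the 400 libraries.

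**Figure D3:**
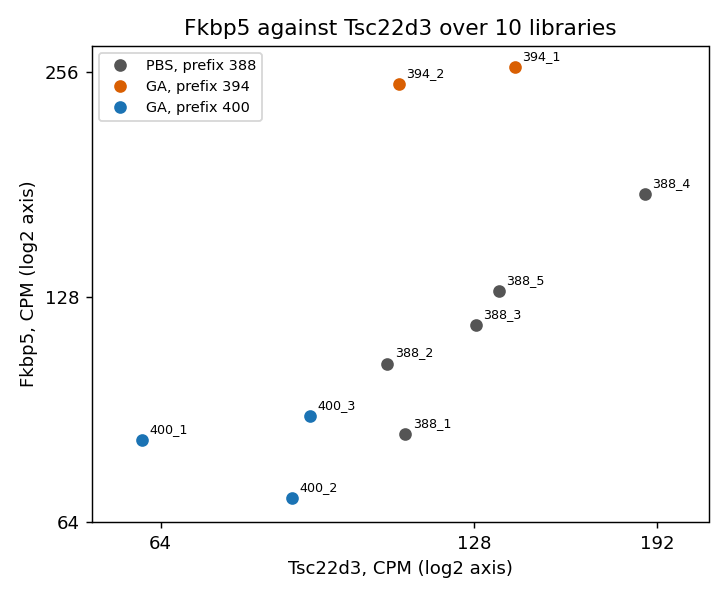
CPM of *Fkbp5* (vertical, log2 axis) against *Tsc22d3* (horizontal, log2 axis) in the 10 libraries, coloured by treatment and prefix. The 2 libraries of prefix 394 sit above the band formed by the other 8, in which library 388_4 is highest for both genes at 176 and 187 CPM.

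*Nr3c1* (ENSMUSG00000024431.15), the glucocorticoid receptor, averaged 272 ± 23.9 CPM in PBS libraries and 262 ± 6.13 CPM in GA libraries (SD, n = 5 each), with a total range of 244 to 303 CPM. Its coefficient of variation over the 10 libraries was 6.51%, the lowest of the set, against 14.8% for *Nr3c2* and 50.8% for *Fkbp5*. The prefix means were 264 CPM for 394 and 260.2 CPM for 400. *Nr3c2* (ENSMUSG00000031618.13), the mineralocorticoid receptor, which binds the same hormone with higher affinity, had 12.8 to 17.5 CPM with PBS and 10.4 to 15.7 CPM with GA. Per exon length, *Nr3c1* exceeded *Nr3c2* by 14.0 to 20.4 times in each library. *Nr3c2* shares 247 exon bases with *Gm10649* on the opposite strand, which was counted at most 1 time in any library. For GA against PBS the log2 fold changes were -0.06 (standard error 0.07) and -0.15 (standard error 0.13), with adjusted *P* of 0.947 and 0.933 in edgeR's test.

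*Sgk1* (ENSMUSG00000019970.15), 1 of the 2 genes with the response element letters, was counted 31966 to 58511 times. It had 1329.8, 1117, 1042, 1813 and 1026 CPM in PBS libraries 388_1 to 388_5, and 1314, 897, 1053, 1066 and 996 CPM in GA libraries 394_1, 394_2, 400_1, 400_2 and 400_3. Library 388_4 was the highest, and the groups overlapped. The log2 fold change of -0.25 (standard error 0.14, adjusted *P* = 0.895 in edgeR) became -0.08 without 388_4. Unlike *Fkbp5*, the 400 libraries were as a group only 1.05-fold lower than the 394 libraries.

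*Ddit4* (ENSMUSG00000020108.4) encodes REDD1, an inhibitor of the growth kinase complex mTORC1 that responds to hypoxia and other stress as well as to glucocorticoids. It had 17.2, 8.99, 7.70, 6.88 and 7.62 CPM in PBS libraries 388_1 to 388_5, and 26.6, 8.14, 4.62, 7.78 and 6.82 CPM in GA libraries 394_1, 394_2, 400_1, 400_2 and 400_3. Single libraries, 388_1 and 394_1, stood far above the rest of their groups. Its log2 fold change of 0.15 (standard error 0.41, adjusted *P* = 0.975 in edgeR) was -0.50 without 394_1 and 0.47 without 388_1. The mean of the 394 libraries therefore rests on 394_1, whereas for *Fkbp5* both 394 libraries were high.

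*Errfi1* (ENSMUSG00000028967.10) encodes MIG6, a feedback inhibitor of EGF receptor signalling. It had 32.2, 41.6, 41.8, 30.4 and 39.5 CPM in PBS libraries 388_1 to 388_5, and 37.1, 46.0, 44.5, 41.4 and 42.9 CPM in the GA libraries in the order above. With GA, 394_2, 400_1 and 400_3 exceeded the highest PBS value. GA against PBS gave a log2 value of 0.19 (standard error 0.10, adjusted *P* = 0.895 in edgeR), and the two-sided exact permutation test gave *P* = 0.135. Its levels were nearly the same in prefixes 394 and 400, at 41.5 and 42.9 CPM on average.

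*Klf9* (ENSMUSG00000033863.2), a transcription factor gene induced by glucocorticoids and thyroid hormone, was counted only 21 to 78 times per library. It had 1.11 to 1.98 CPM with PBS and 0.629 to 2.04 CPM with GA. The estimated log2 difference was -0.09 (standard error 0.34, adjusted *P* = 0.981 in edgeR). The 394 libraries had 0.629 and 1.26 CPM, so that 394_1 lay below the PBS range and 394_2 within it.

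The metallothionein genes *Mt1* and *Mt2* encode small proteins that bind zinc and copper and are induced by metals and glucocorticoids. They are neighbours on chromosome 8 of GRCm38, *Mt2* (ENSMUSG00000031762.7) at 94172664 to 94173568 and *Mt1* (ENSMUSG00000031765.8) at 94179082 to 94180327, both on the plus strand. *Mt1* had 33.5 to 64.4 CPM with PBS and 41.8 to 53.4 CPM with GA, an estimated log2 difference of 0.02 (standard error 0.14, adjusted *P* = 0.990 in edgeR). *Mt2* was counted 1 to 18 times per library. Per exon length *Mt1* was 53.4 to 529 times higher than *Mt2*, with the highest ratio in library 388_2, where the *Mt2* count was 1. The ratio also depends on the annotation, in which the exons of *Mt1* form 1 block over the whole gene. Of the 588 exon bases of *Mt2*, 432 are shared with *Gm45774* on the opposite strand, itself counted at most 2 times, and the counting rule for such reads is not given in the sources used here. In a fit without the filter on low counts, *Mt2* had a log2 fold change of 0.56 (standard error 0.70, adjusted *P* = 0.828 in edgeR).

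**Figure D4:**
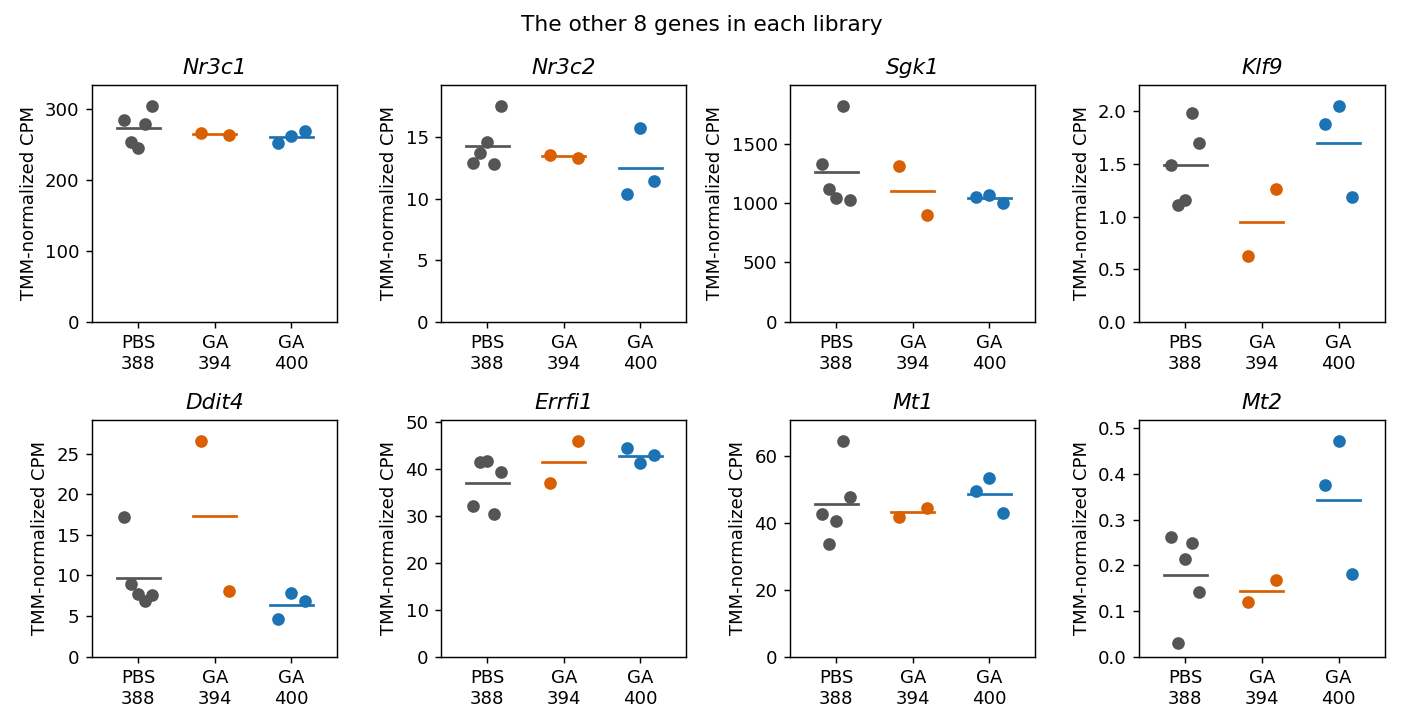
TMM-normalized CPM (vertical axes from 0, scaled to each gene) of the other 8 genes in each library, by treatment and title prefix, with points for libraries and lines for means. *Nr3c1* is nearly level across the prefixes, *Ddit4* is set apart by single libraries at 17.2 and 26.6 CPM, and *Mt2* reaches at most 0.472 CPM.

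Library 388_4 was the highest of the PBS libraries for 5 of the 9 genes tested, *Fkbp5*, *Tsc22d3*, *Sgk1*, *Klf9* and *Mt1*, as it was for 27.1% of all genes. It was also the lowest of all 10 libraries for *Errfi1*. The same library had the highest sums of border macrophage markers (255 CPM, with 49.5 to 150.3 CPM in the other PBS libraries) and of monocyte markers (83.6 CPM, with 27.8 to 72.1 CPM). Among PBS libraries it was also highest for endothelial markers (50.04 CPM, with 36.6 to 39.8 CPM in the others) and astrocyte markers (306 CPM, with 248 to 296 CPM) and lowest for microglia markers (50141 CPM). Of the 7 endothelial markers 2 passed the filter on low counts, and nearly all of the astrocyte sum came from *Slc1a3*, so these 2 sums rest on few genes. Whether other cells had a part in its levels was not tested. The CD45int gate of the sort is meant to leave out cells with high CD45, such as monocytes.

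The genes whose pattern was most like that of *Fkbp5* over the 10 libraries, by Pearson's r of log2 CPM among the genes tested, were *Zfp940* (r = 0.94), *Myc* (0.94), *Ppp1r21* (0.93), *Lifr* (0.93) and *Ogfrl1* (0.93). Spearman's rho for these was 0.88 to 0.93. *Myc*, a transcription factor gene of growth, averaged 90.0 ± 11.9 CPM over the PBS libraries (SD, n = 5), with means of 156 CPM in prefix 394 and 66.4 CPM in prefix 400. *Lifr*, the receptor gene for leukaemia inhibitory factor, had 105 ± 15.6 CPM (SD, n = 5), 131 CPM and 81.9 CPM in the same order. The most opposite patterns were those of the DNA repair gene *Rad54l* (r = -0.96), *Gas1* (-0.92), counted 0 to 29 times, and the mechanosensitive channel gene *Piezo1* (-0.91). With 10 libraries, 13 of the other 14480 genes had r over 0.9 and 5 had r under -0.9, and these values describe the libraries only. Without the 394 libraries, which lay farthest from the median of *Fkbp5*, r was 0.92 for *Ppp1r21* and *Lifr*, 0.90 for *Zfp940*, 0.86 for *Ogfrl1* and 0.82 for *Myc*.

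Within the set, *Tsc22d3* was nearest to *Fkbp5* (r = 0.63, rho = 0.78 over 10 libraries), and r was 0.87 over the 8 libraries without prefix 394. For the other 7 genes tested r with *Fkbp5* ran from -0.52 for *Klf9* to 0.40 for *Ddit4*. The receptor gene *Nr3c1* had r = 0.12.

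Lists of related genes gave no call for GA against PBS. Over 98 genes in 6 lists, edgeR tested 87 and DESeq2 tested 93, and with either tool 0 had an adjusted *P* under 0.05. An unadjusted *P* under 0.05 was found for 9 of the 87 in edgeR, beside 833 of 14481 genes in all (5.75%), and for 11 of the 93 in DESeq2, beside 1245 of 27495 (4.53%). Of 28 further genes known to be induced by glucocorticoids, 24 were tested, 5 were higher and 19 lower with GA, and their median log2 fold change was -0.16, beside 0.00 for all genes. An unadjusted edgeR *P* under 0.05 was found for 2 higher and 2 lower genes of the 24, beside 374 higher and 459 lower of the 14481. *Anxa1*, which encodes the anti-inflammatory protein annexin A1, ran from 2.54 to 22.6 CPM in PBS libraries and from 0.607 to 10.5 CPM in GA libraries (n = 5 each), a log2 change of -1.52 (standard error 0.60, adjusted *P* = 0.854 in edgeR). Its mean was lowest in prefix 400, at 2.70 CPM. The neutrophil marker sums given above were lowest in 400_1 and 400_2, at 10.9 and 18.6 CPM. In 400_3 the sum was 105 CPM, above those of 394_1 and 388_2, and the part of these markers was not tested. *Tiparp* had 24.8 ± 2.89 CPM and 30.4 ± 4.75 CPM (SD, n = 5 each). The most abundant of the list were the phagocytic receptor gene *Mertk*, with 978 ± 10.5 CPM and 997 ± 66.8 CPM, and *Txnip*, with 518 ± 32.6 CPM and 515 ± 14.3 CPM (SD, n = 5 each). Both overlapped between the groups. For *Mertk* 2 GA libraries lay above all PBS libraries and 2 below, with means of 1064 CPM in prefix 394 and 952 CPM in prefix 400.

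The prefixes stood apart for this list as well. Relative to the PBS mean, the median log2 difference of the 24 genes was 0.09 and 0.03 in the 394 libraries and -0.33, -0.15 and -0.22 in the 400 libraries, while the PBS libraries ran from -0.09 to 0.24. On average, 16 of the 24 genes were higher in prefix 394 than in PBS and 19 of 24 were lower in prefix 400, where 7490 and 6751 of the 14481 genes were. Immediate early genes, which respond to handling of cells among other stimuli, showed a similar split by count, with 13 of 17 higher in prefix 394 and 13 of 17 lower in prefix 400. Their medians were 0.03 and 0.22 in the 394 libraries and -0.27, -0.07 and -0.46 in the 400 libraries. The PBS libraries ran from -0.24 to 0.19, so 400_2 lay within their range. The part of immediate early genes in the levels of the induced genes was not tested. Endothelial marker sums were 34.1 and 38.3 CPM in the 394 libraries and 44.0 to 48.5 CPM in the 400 libraries. Border macrophage marker sums were 49.1 and 88.6 CPM, and 94.9 to 195 CPM. Sums of microglia, neuronal, oligodendrocyte, neutrophil and monocyte markers overlapped between the GA prefixes. Whether such cells had a part was not tested.

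**Figure D5:**
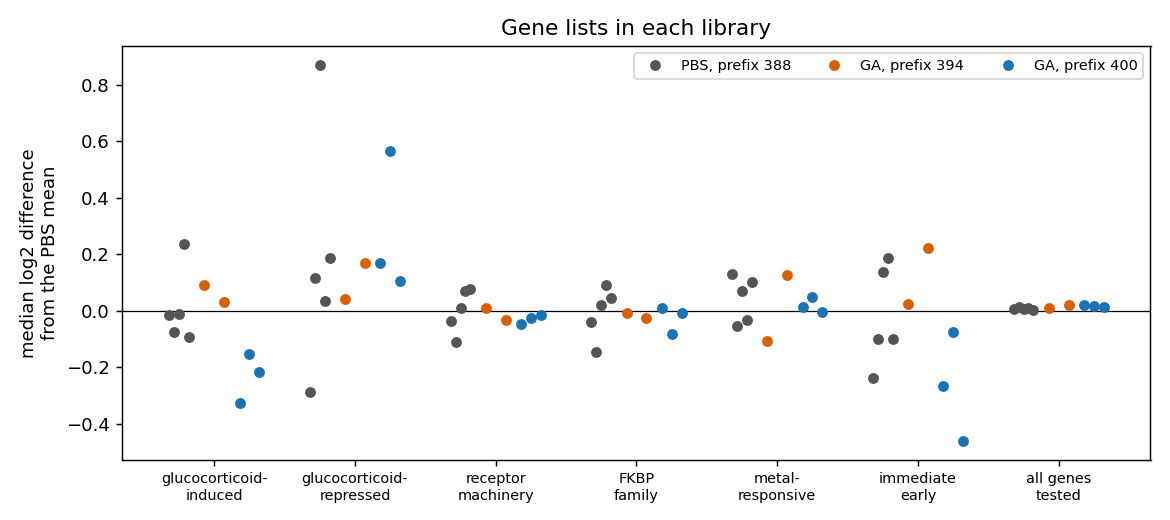
Median log2 difference from the PBS mean (vertical axis) over the tested genes of each list, in each library, coloured by treatment and prefix. For the glucocorticoid-induced list the 400 libraries sit at -0.33 to -0.15, below the PBS libraries, and the median over all genes stays near 0 in each library.

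Genes that glucocorticoids repress gave a median above 0. Of 12 cytokine and inflammation genes, 11 were tested, 8 were higher and 3 lower with GA, with a median log2 fold change of 0.15. Relative to PBS, prefix 394 had a median of 0.06 with 6 genes higher and 5 lower, and prefix 400 a median of 0.34 with 9 higher and 2 lower. The PBS libraries differed among themselves for this list, with medians from -0.29 to 0.87 around the PBS mean. *Il12b*, a cytokine subunit gene, averaged 0.806 ± 0.621 CPM in PBS libraries and 4.47 ± 4.21 CPM in GA libraries (SD, n = 5 each), with means of 1.58 CPM in prefix 394 and 6.39 CPM in prefix 400, counts from 0 to 384 and an adjusted *P* of 0.847 in edgeR. *Ccl3*, a chemokine gene, had 74.1 ± 23.4 CPM and 95.4 ± 11.8 CPM, while the abundant genes *Icam1* (268 ± 30.2 and 273 ± 23.4 CPM) and *Ccl4* (86.8 ± 31.8 and 103 ± 12.3 CPM) overlapped between the groups (SD, n = 5 each).

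The machinery of the receptor was nearly level. Of 18 chaperone, cochaperone, coregulator and hormone-converting enzyme genes, 16 were tested, 6 were higher and 10 lower with GA, and log2 fold changes ran from -0.13 to 0.11. *Hspa8* had 529 ± 70.2 CPM and 495 ± 76.2 CPM, *Hsp90ab1* 503 ± 62.5 CPM and 517 ± 31.8 CPM, the cochaperone gene *Stip1* 87.7 ± 8.20 CPM and 80.0 ± 4.98 CPM, and the coactivator gene *Ncoa3* 198 ± 15.3 CPM and 186 ± 6.46 CPM with PBS and GA (SD, n = 5 each). *Hsd11b1* and *Hsd11b2*, whose enzymes activate and inactivate the hormone, did not pass the filter on low counts.

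*Fkbp4*, whose product FKBP52 is the closest relative of FKBP51 and acts on the receptor in the opposite direction, had 118 ± 12.4 CPM with PBS and 119 ± 5.04 CPM with GA (SD, n = 5 each). Its means were 121 CPM in prefix 394 and 118 CPM in prefix 400, a log2 difference of -0.04 beside -1.67 for *Fkbp5*. Over the 13 other FKBP genes, all tested, 3 were higher and 10 lower with GA, with a median log2 fold change of -0.04. *Fkbp15* (231 ± 19.3 and 218 ± 17.6 CPM) and *Fkbp8* (163 ± 16.9 and 169.7 ± 4.49 CPM) had the most reads, and their groups overlapped. *Fkbp10*, counted 5 to 46 times, averaged 0.698 ± 0.406 CPM for PBS and 0.297 ± 0.117 CPM for GA (SD, n = 5 each). Its log2 value of -1.22 (standard error 0.47) had an unadjusted edgeR *P* of 0.0208 and an adjusted *P* of 0.847.

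Of 10 metal-responsive genes, 7 were tested, 3 were higher and 4 lower with GA, and 2 of the higher genes had an unadjusted *P* under 0.05 in edgeR, as had 374 higher genes of the 14481. The zinc transporter gene *Slc39a14* averaged 39.7 ± 6.81 CPM in PBS libraries and 50.2 ± 2.82 CPM in GA libraries (SD, n = 5 each), with an estimated log2 difference of 0.34 (standard error 0.11, adjusted *P* = 0.847 in edgeR), and 4 of 5 GA libraries exceeded the highest PBS value. *Slc30a1*, which exports zinc, had 7.77 ± 2.03 CPM and 11.2 ± 2.27 CPM (SD, n = 5 each), a log2 fold change of 0.53 (standard error 0.20, adjusted *P* = 0.847 in edgeR). For both the means of prefixes 394 and 400 were close, at 49.8 and 50.5 CPM for *Slc39a14* and 12.1 and 10.7 CPM for *Slc30a1*. The abundant genes *Gclc* (116 ± 18.9 and 115 ± 15.7 CPM) and *Slc39a10* (88.1 ± 11.7 and 75.1 ± 10.3 CPM) overlapped between the groups, as did *Mt1*.

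Of 18 immediate early genes, 17 were tested, and 6 were higher and 11 lower with GA over all 5 libraries. *Klf2* had 9.13 ± 4.27 CPM with PBS and 6.07 ± 0.643 CPM with GA, and *Egr2* 10.7 ± 5.81 CPM and 15.0 ± 2.14 CPM (SD, n = 5 each), with adjusted *P* of 0.854 and 0.895 in edgeR. *Rhob* (382 ± 15.6 and 370.0 ± 48.8 CPM) and *Btg2* (244 ± 14.6 and 257 ± 6.98 CPM), the most abundant of the list, overlapped between the groups.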

How the data were processed

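Microglial RNA of 10 libraries, 5 per treatment, was sequenced as single-end reads. The authors deposited raw counts of reads per gene, without normalization, and their submission notes name bcl2fastq 2.19.0, fastp 0.20.0, STAR 2.7.0f, featureCounts of Subread 1.6.4, DESeq2 and GRCm38.p6. The annotation and strand setting are not given in the sources used here. Each column was matched to a library by its title, and 0 columns were left over.

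Low counts were removed by filterByExpr (minimum count 10), libraries were scaled by TMM, and GA was compared with PBS in edgeR 4.0.16 (quasi-likelihood F-test, no covariate, Benjamini-Hochberg adjustment over 14481 genes, threshold 0.05) in R 4.3.3. The standard error is the log2 fold change divided by the root of F. Single genes were also compared by exact permutation over 252 arrangements on log2(CPM + 0.1). Alternatives were DESeq2 1.42.0, limma 3.58.1 (voom), DESeq2's size factors, other filters and pseudocounts, libraries left out, and single GA prefixes. Scripts were tested on simulated data. Coordinates and exon lengths come from GENCODE M21 on GRCm38, promoters from RefSeq. RPKM was computed from TMM-normalized CPM and merged exons.

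The 10 genes and all lists were chosen with earlier results of these data known. Named were the 10 genes, from each list 2 genes by smallest unadjusted edgeR p-value and 2 by most counts, the 5 genes most like and the 3 most unlike *Fkbp5*, and *Fkbp4*. One item of the genotype is not reported here.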

Additional observations from a re-analysis of the deposited data

Results flagged for a closer look

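*Ddit4* was set apart in both groups by a single library. PBS library 388_1 had 17.2 CPM, and its gap to the nearest PBS library was 79.5% of the range of the group. GA library 394_1 had 26.6 CPM, with a gap of 84.0% of the range of the GA group. Both exceed the 95% critical value of Dixon's test for 5 values, 0.71 as a share of the range, in 20 groups examined, and chance flags about 1 in 20.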

How the results depend on the processing

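The count of genes with an adjusted *P* under 0.05 was 0 among the 9 genes tested and 0 in the related lists under each of the 17 alternatives, and 0 genes had groups that did not overlap under other scalings or with any 1 library left out. The count with an unadjusted *P* under 0.05, 1 in the edgeR fit, was 0 in DESeq2, 2 with GA libraries of prefix 400 alone and 1 with those of prefix 394 alone, and ranged from 0 to 3 when libraries were left out in turn, with 2 without 388_3 and 3 without 394_1. The prefix counts include *Fkbp5*, which was chosen on its values by prefix, so they are no test of it. Over the other 15 alternatives the edgeR, DESeq2 or limma adjusted *P* was at least 0.642 for *Tsc22d3* and at least 0.732 for *Fkbp5*. With limma-voom the log2 fold change was 0.09 for *Fkbp5* and -0.09 for *Ddit4*. The log2 difference of *Fkbp5* between the GA prefixes stayed between -1.75 and -1.57. Of the 5 genes most like *Fkbp5*, 4 were kept without TMM, 1 with Spearman's rho and 0 without the 394 libraries. No paired analysis was possible because the title numbers repeat under both GA prefixes and the labels give them no shared animal, litter or day. Low counts in each library limit what can be said of *Mt2*, *Klf9*, *Fkbp10* and *Gas1*.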

Other observations

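*Sgk1* and *Errfi1*, both induced by glucocorticoids in many tissues, ran in opposite directions over the 10 libraries (Pearson's r = -0.93, Spearman's rho = -0.82 of log2 CPM). *Klf9* and *Mt1* ran together (r = 0.69, rho = 0.92), although they are on different chromosomes and *Klf9* rests on few reads. Among the 45 pairs of the 10 genes, 5 had r over 0.6 and 3 had r under -0.6. The share of all gene pairs with such values was not computed, so these counts are no result about the set. The positive pairs include *Mt2* with *Mt1* (r = 0.70) and with *Klf9* (r = 0.65), although *Mt2* did not pass the filter on low counts. Beside *Sgk1* and *Errfi1*, the negative pairs were *Klf9* with *Ddit4* (-0.68) and *Tsc22d3* with *Errfi1* (-0.66). These values describe 10 libraries that were normalized together.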
